A study of Mus musculus with 16 samples.

Results

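Sox2 occupancy was compared between 2 reprogramming cocktails that differ in their POU factor, Oct6-SK and Oct4defSox2-SK, at day 5. A Sox2 site was a peak summit as deposited, on chromosomes 1 to 19, X and Y, and a site counted as shared when a summit of the other library lay within 100 bp. The Oct6-SK list held 2669 such sites and the Oct4defSox2-SK list held 21551, together 24220 of the 227116 summits in the 13 lists of the series. In both groups, mouse embryonic fibroblasts of the OG2 strain, which carry a GFP reporter driven by the Oct4 promoter, were infected with pMX retroviruses for Sox2 and Klf4 and a POU factor, and were moved to the defined medium iCD1 at day 0. The POU factor was Oct6 (gene Pou3f1) in one group and Oct4defSox2, an Oct4 (gene Pou5f1) engineered to be defective in pairing with Sox2 on DNA, in the other. Each library was made from cross-linked reprogramming cells that had been infected with viruses for the 3 factors of their cocktail. There was 1 library per group, so the differences have no replicate check. Intervals given with shares are 95% Wilson intervals, and those given with differences are 95% Newcombe intervals in percentage points. Both cover counting error among sites only, and a difference is called past counting error where its interval excludes 0.

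Sox2 is an HMG-box transcription factor that bends DNA at a short core such as CATTGT or CTTTGT, and it is a core factor of pluripotent cells and of neural progenitors. POU factors bind the octamer ATGCAAAT through 2 linked domains. Oct4 and Sox2 bind side by side on the composite SoxOct element, a Sox core followed by an octamer-like sequence, which is found in many enhancers of pluripotent cells. Oct6 is a POU factor of epiblast, neural and Schwann cells. AP-1, the dimer of Fos and Jun proteins that binds TGANTCA, occupies many enhancers of fibroblasts. The comparison asks where Sox2 sits in cells in which the partner POU factor is either another family member or an Oct4 that cooperates poorly with it.

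Stretches of 121 bases centred on the summit are shown for chosen sites. They are read from GRCm38 (mm10), plus strand, with matches to the Sox core, SoxOct, octamer and AP-1 motifs in capitals. A Sox core on the other strand reads ACAATG or ACAAAG, and an octamer there reads ATTTGCAT.
Shared site 6.32 kb from the start of Sox21 (chr14:118230648-118230768): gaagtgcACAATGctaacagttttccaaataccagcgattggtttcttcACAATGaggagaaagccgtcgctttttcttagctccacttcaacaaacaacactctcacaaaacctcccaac
Shared site in an intron of Bcas3 (chr11:85678705-85678825): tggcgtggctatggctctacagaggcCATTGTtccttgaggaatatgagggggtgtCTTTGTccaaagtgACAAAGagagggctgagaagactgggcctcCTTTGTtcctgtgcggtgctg
Shared site without a Sox2 summit in Oct4-SK, 521 kb from Zfp352 (chr4:90744106-90744226): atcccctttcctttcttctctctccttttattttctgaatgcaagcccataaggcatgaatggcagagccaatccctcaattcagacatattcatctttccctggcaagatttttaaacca
Shared site without a Sox2 summit in Oct4-SK, 221 kb from Noct (chr3:51003312-51003432): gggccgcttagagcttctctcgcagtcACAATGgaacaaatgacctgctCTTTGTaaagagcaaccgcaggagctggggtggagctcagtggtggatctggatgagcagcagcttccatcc
Shared site without a Sox2 summit in Oct4-SK, in an intron of Tmtc2 (chr10:105200176-105200296): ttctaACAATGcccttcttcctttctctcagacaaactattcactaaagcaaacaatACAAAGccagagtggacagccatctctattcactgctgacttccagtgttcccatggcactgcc
The Sox21, Bcas3, Noct and Tmtc2 sites are shown because they carry Sox cores, up to 4 in 121 bases, and no SoxOct or octamer match. The Zfp352 site, the first by rank of those without an Oct4-SK summit, matches none of these motifs, and nor does the 4th, in an intron of Focad, whose stretch is not printed.
Oct6-SK only, 6.66 kb from Sox21 (chr14:118230311-118230431): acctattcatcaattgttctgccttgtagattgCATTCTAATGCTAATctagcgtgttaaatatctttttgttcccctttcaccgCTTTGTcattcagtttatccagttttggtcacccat
Oct6-SK only, in an intron of Nr1h4 (chr10:89487299-89487419): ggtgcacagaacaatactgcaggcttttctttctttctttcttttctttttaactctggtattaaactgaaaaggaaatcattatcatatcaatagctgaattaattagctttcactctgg
Oct6-SK only, 70.6 kb from Npas2 (chr1:39123579-39123699): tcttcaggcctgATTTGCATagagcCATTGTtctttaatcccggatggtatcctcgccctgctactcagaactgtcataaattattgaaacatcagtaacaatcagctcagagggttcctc
Oct6-SK only, 9.66 kb from Acod1 (chr14:103037259-103037379): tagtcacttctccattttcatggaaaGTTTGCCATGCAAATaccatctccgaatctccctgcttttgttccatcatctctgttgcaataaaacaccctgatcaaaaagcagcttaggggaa
Oct6-SK only, in an intron of Schip1 (chr3:68375578-68375698): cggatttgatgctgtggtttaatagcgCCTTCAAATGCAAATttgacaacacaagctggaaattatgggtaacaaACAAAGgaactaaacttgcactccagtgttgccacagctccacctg
Among the Oct6-SK only sites, the Sox21 site carries a SoxOct match, the Npas2 site an octamer beside a Sox core, and the Acod1 and Schip1 sites a SoxOct match that ends in a perfect octamer. The Nr1h4 site, the highest of them with no Oct4defSox2-SK summit within 1 kb, matches none of these motifs in the window shown.
Oct4defSox2-SK only, 667 kb from Flrt2 (chr12:96362758-96362878): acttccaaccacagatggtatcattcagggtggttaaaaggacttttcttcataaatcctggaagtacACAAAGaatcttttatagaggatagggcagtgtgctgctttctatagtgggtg
Oct4defSox2-SK only, in an intron of Rb1 (chr14:73253585-73253705): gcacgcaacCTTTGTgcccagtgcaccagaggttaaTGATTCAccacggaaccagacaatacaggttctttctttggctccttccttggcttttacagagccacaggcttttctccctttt
The Rb1 site pairs a Sox core with an AP-1 match, and the Flrt2 site has a Sox core alone. The Npas2, Acod1, Schip1 and Rb1 sites were picked after their values were seen. The other sites shown were among the first 4 of their class by score.

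The Oct4defSox2-SK list was 8.07 times as long as the Oct6-SK list. The score of a summit is the −log10 p-value that the peak caller gave it. In Oct6-SK the scores ran from 4.06 to 69.8 with a median of 8.78, and 35.5% of the sites scored at least 10. In Oct4defSox2-SK they ran from 4.04 to 281 with a median of 8.62, and 44.6% scored at least 10. The 2 lists therefore differed in length and in their upper range while their medians lay close together. The 2669th site from the top scored 20.3 in Oct4defSox2-SK against 4.06 in Oct6-SK. Read depth is unknown from these lists and scores are not scaled between libraries, so the difference in list length, in depth and in enrichment cannot be told apart. The comparisons of sharing, motifs, promoters, day 1 sites and gene lists were repeated at equal numbers of top-ranked sites or against the strongest sites. The split of Oct6-SK sites by Oct4-SK, the sharing by motif and the values of single genes were taken over the whole lists. The day 5 Sox2 list of Oct4-SK, with the unmodified factor, held 5793 sites and served as the reference.

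Of the Oct6-SK sites, 1399 of 2669 (52.4%, 50.5 to 54.3) had an Oct4defSox2-SK summit within 100 bp. Of the Oct4defSox2-SK sites, 1400 of 21551 (6.50%, 6.17 to 6.83) had an Oct6-SK summit. Merged, the 2 lists gave 22816 sites, of which 6.13% were of both, 1270 (5.57%) of Oct6-SK alone and 20147 (88.3%) of Oct4defSox2-SK alone. The lengths of the lists alone limit the share of the longer one that could be matched. Fewer Oct6-SK sites, 964 (36.1%, 34.3 to 38.0), had a summit in Oct4-SK, which is 16.3 points (14.1 to 18.4) below the share with Oct4defSox2-SK. Of the Oct4defSox2-SK sites, 10.3% (9.94 to 10.8) had a summit in Oct4-SK, and the difference of Oct6-SK minus Oct4-SK was −3.84 points (−4.26 to −3.42).

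These shares moved with the length of the lists. With the 2669 highest-scoring sites of each library, 822 Oct6-SK sites (30.8%, 29.1 to 32.6) were shared with Oct4defSox2-SK and 762 (28.6%, 26.9 to 30.3) with Oct4-SK. The difference fell to 2.25 points (0.280 to 4.21). Of the 2669 strongest Oct4defSox2-SK sites, 30.8% were shared with Oct6-SK and 32.0% (30.3 to 33.8) with Oct4-SK, a difference of −1.16 points (−3.20 to 0.878). With the 1000 strongest of each, 34.3% (31.4 to 37.3) of Oct6-SK sites were shared with Oct4defSox2-SK and 32.0% with Oct4-SK, and with the 300 strongest 37.0% (31.7 to 42.6) and 33.3%. At equal numbers the 3 cocktails thus shared between 28.6% and 37.0% of their sites pair by pair. At 1000 sites the preference of Oct6-SK sites for Oct4defSox2-SK was 2.30 points (−0.953 to 5.55), within counting error.

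Sharing followed the score. In 10 bins of equal size from the highest to the lowest Oct6-SK score, the share with an Oct4defSox2-SK summit was 79.4, 73.8, 65.2, 58.8, 55.1, 55.8, 34.8, 38.2, 35.6 and 27.4%. The decline was not the same at each step, with the largest fall from 55.8 to 34.8%. The 668 highest sites were shared at 75.1% and the 667 lowest at 33.3%, a difference of 41.9 points (36.9 to 46.5). The shares with Oct4-SK fell over the same bins from 76.4 to 15.4%, so that in the highest bin the 2 lists covered nearly the same share although one was much longer. From the Oct4defSox2-SK side, 34.0% of the highest bin had an Oct6-SK summit, 12.3% of the next and 0.603% of the lowest.

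**Figure D1:**
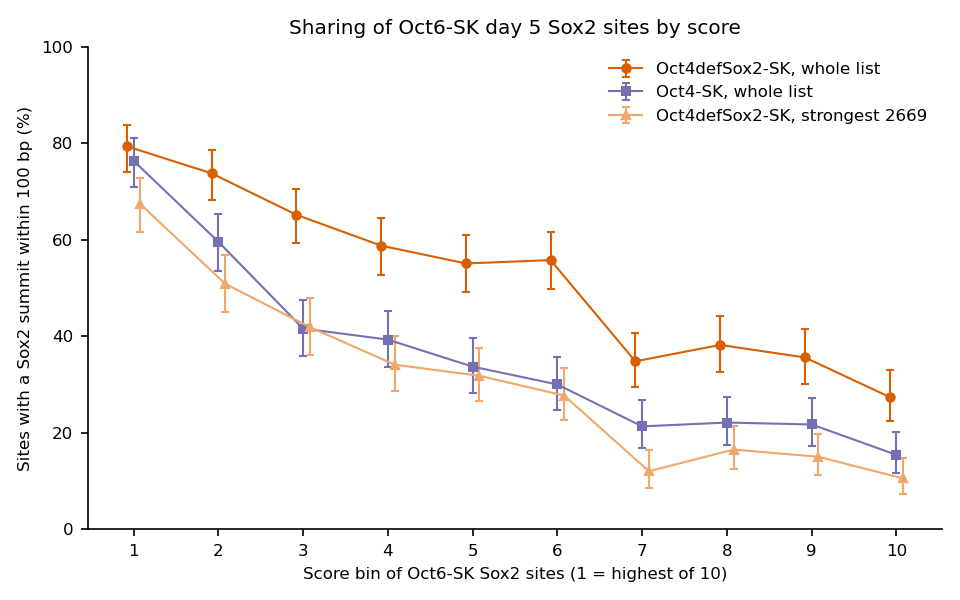
Share of Oct6-SK day 5 Sox2 sites with a Sox2 summit of another library within 100 bp (y axis, %), by score bin of the Oct6-SK sites (x axis, 10 bins of equal size, 1 is the highest). Points are shares with 95% Wilson intervals against the whole Oct4defSox2-SK list, the whole Oct4-SK list and the 2669 strongest Oct4defSox2-SK sites. Sharing falls from 79.4 to 27.4% with the whole Oct4defSox2-SK list and from 76.4 to 15.4% with the Oct4-SK list.

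The Oct6-SK sites divided further by Oct4-SK. Of the 2669, 712 (26.7%) had a summit in both of the other lists, 687 (25.7%) in Oct4defSox2-SK alone, 252 (9.44%) in Oct4-SK alone and 1018 (38.1%) in neither. Their median scores in Oct6-SK were 11.7, 9.00, 9.58 and 7.33, so the sites found in all 3 cocktails were the higher and those found in Oct6-SK alone the lower ones.

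At the 1399 shared sites the median score was 9.88 in Oct6-SK and 24.2 in Oct4defSox2-SK, and the Oct4defSox2-SK score was the higher at 1255 (89.7%). The scores of the libraries were related across sites with a Spearman rho of 0.40 and a Pearson r of 0.45 on the log10 scale. Sites are not independent replicates and the scores share their chromatin and their sequence, so these are given as descriptions. Within their own list 822 of the shared sites (58.8%) stood among the 2669 strongest of Oct4defSox2-SK. The paired summits lay a median of 35 bp apart (quartiles 17 and 59), and 12 pairs fell on the same base.

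**Figure D2:**
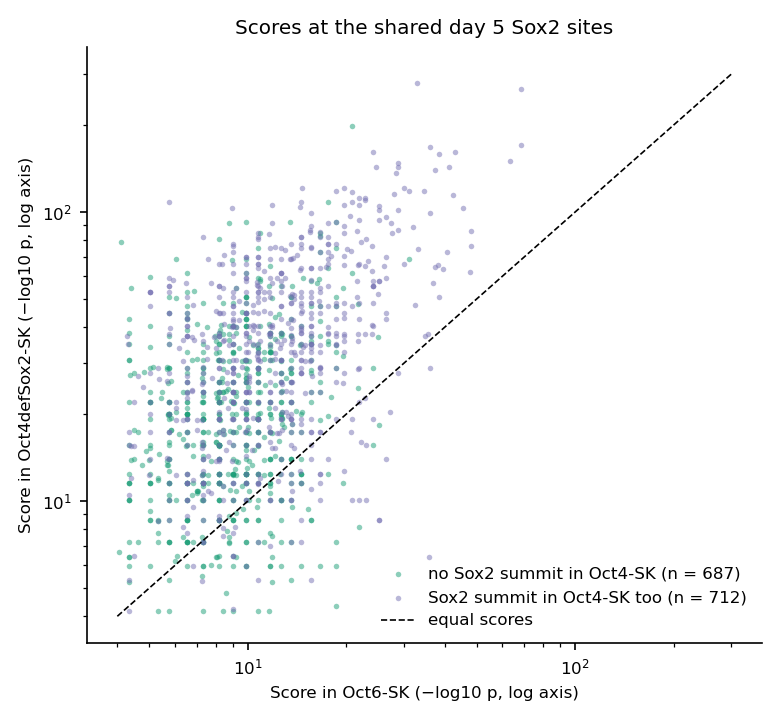
Score of each of the 1399 shared sites in Oct6-SK (x axis) and Oct4defSox2-SK (y axis), both −log10 p on log axes. Each point is a site, coloured by whether Oct4-SK also had a Sox2 summit there at day 5 (712 did, 687 did not), and 1255 points lie above the dashed line of equal scores.

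The first shared site by rank lay 0.144 kb from the start of Mobp, which encodes a myelin protein. It scored 68.4 in Oct6-SK, 265 in Oct4defSox2-SK and 102 in Oct4-SK and held 7 Sox cores within 100 bp. The shared site near Sox21, a Sox factor of neural progenitors, scored 68.4 in Oct6-SK, 170 in Oct4defSox2-SK and 52.8 in Oct4-SK. The Bcas3 site, 154 kb from the nearest start, that of Tbx2, scored 42.9, 161 and 56.9 in the same order. A site 405 kb from the nearest coding gene start scored 63.3, 150 and 23.6. All 4 were thus sites of the 3 cocktails and ranked 11 or better in both lists compared. The first 4 sites shared by the 2 cocktails without a summit in Oct4-SK stood at ranks from 34 to 177 of the Oct6-SK list and from 4 to 150 of the other. The first, 521 kb from the start of Zfp352, scored 20.8 in Oct6-SK and 199 in Oct4defSox2-SK, and had an Oct4-SK summit 143 bp away. The Noct site scored 31.1 in Oct6-SK and 68.9 in Oct4defSox2-SK, with its 2 summits on the same base, and the nearest Oct4-SK summit 118 bp away, just outside the limit. The Tmtc2 site scored 18.7 and 75.2 and had its nearest Oct4-SK summit 421950 bp away. The Focad site scored 18.7 and 92.3, with an Oct4-SK summit 139 bp away, so 3 of the 4 lay close to an Oct4-SK summit beyond the limit of 100 bp.

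The 1270 Oct6-SK only sites lay at different distances from the nearest Oct4defSox2-SK summit. It was 100 to 250 bp away for 350 of them, 250 to 500 bp for 56, 500 to 1000 bp for 25 and further than 1 kb for 839. The highest Oct6-SK only site had such a summit nearby. It lay 6.66 kb from Sox21, scored 69.8 as the strongest Sox2 site of Oct6-SK and 81.7 in Oct4-SK, and the Oct4defSox2-SK summit that scored 170 was 284 bp away. Its SoxOct match is printed above, and 6 of the 7 POU factor lists had a summit there. At this locus the Sox2 summits of Oct6-SK and Oct4-SK therefore lay close to the SoxOct match and also at the site with Sox cores, while Oct4defSox2-SK had a summit within 100 bp of the latter alone. The Nr1h4 site stood alone. Nr1h4 encodes the bile acid receptor FXR, and the site scored 40.5 in Oct6-SK and 38.9 in Oct4-SK, with the nearest Oct4defSox2-SK summit 52317 bp away. The Npas2 site scored 22.9 in Oct6-SK and had its nearest Oct4-SK summit 114226 bp and its nearest Oct4defSox2-SK summit 114251 bp away. The Acod1 and Schip1 sites scored 11.7 and 9.88 in Oct6-SK and were absent from both of the other day 5 Sox2 lists.

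Of the highest Oct4defSox2-SK only sites, the Flrt2 site scored 145 and had no Oct6-SK summit within 1127546 bp and no Oct4-SK summit within 387742 bp. It carried a Sox2 summit in all 3 day 1 lists. The Rb1 site scored 95.9 in Oct4defSox2-SK and 19.7 in Oct4-SK, with the nearest Oct6-SK summit 60580 bp away. A site in an intron of Gmds that scored 105 had an Oct6-SK summit of 9.88 at a distance of 129 bp, so it too lay close to an Oct6-SK site.

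Most sites of every class carried the Sox core, but the classes differed in the motifs beside it. Motifs were searched on both strands within 100 bp of the summit, and the same windows moved by 2 kb gave the background. The Sox core was present at 77.6% of shared sites (background 27.5%), 59.5% of Oct6-SK only sites (29.7%) and 53.3% of Oct4defSox2-SK only sites (27.5%). The 20151 Oct4defSox2-SK only sites reach far lower in rank, and the 1270 strongest of them held the Sox core at 76.9%. Against the whole class the Oct6-SK only share was 6.22 points higher (3.42 to 8.98), and against the strongest 1270 it was 17.4 points lower (the difference being −17.4, −20.9 to −13.8). The direction of this difference therefore depended on how many Oct4defSox2-SK sites were taken.

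SoxOct and the octamer were more frequent at Oct6-SK only sites than at either set of Oct4defSox2-SK only sites. SoxOct, a 15-letter consensus allowed 2 mismatches, was present at 5.12% of Oct6-SK only sites (65 of 1270, background 1.06%), 3.86% of shared sites (1.14%) and 1.21% of Oct4defSox2-SK only sites (0.993%). The difference between the 2 exclusive classes was 3.91 points (2.81 to 5.27), 0.609 (0.270 to 1.24) with 1 mismatch allowed, an interval of 8.85 to 13.4 with 3, and 4.17 points (2.88 to 5.59) against the strongest Oct4defSox2-SK only sites, which held it at 0.945%. The perfect octamer ATGCAAAT, which can lie inside a SoxOct match, was present at 4.02% of Oct6-SK only sites (background 1.57%), 1.57% of shared sites (1.39%), 1.08% of Oct4defSox2-SK only sites (1.39%) and 0.236% of the strongest of these (3 of 1270, background 1.38%). The octamer difference was 2.94 points (1.98 to 4.17) against all and 3.78 (2.73 to 5.02) against the strongest. Counting either motif, 8.19% of Oct6-SK only sites and 1.10% of the strongest Oct4defSox2-SK only sites were positive. Both motifs were thus above background in Oct6-SK only sites, and SoxOct was at or near background in the sites of Oct4defSox2-SK alone. MORE, the palindromic element on which POU factors pair with themselves, was at background in every class, at 0.630% of Oct6-SK only and 0.650% of Oct4defSox2-SK only sites, a difference of −0.0202 points (−0.353 to 0.596), and of 0.157 points (−0.478 to 0.817) against the strongest. With 2 mismatches allowed in place of 1, the difference was 4.13 points (2.53 to 5.96).

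AP-1 ran the other way. TGANTCA was present at 10.9% of Oct6-SK only sites (background 6.30%), 19.9% of shared sites (6.11%), 16.4% of Oct4defSox2-SK only sites (6.31%) and 25.4% of the strongest of these (6.38%). The difference of Oct6-SK only minus Oct4defSox2-SK only was −5.50 points (−7.18 to −3.60), and −14.4 (−17.3 to −11.5) against the strongest. The KLF motif GGGNGTGG was found at 7.17% of Oct6-SK only, 9.72% of shared and 8.99% of Oct4defSox2-SK only sites, all above a background near 5%. The difference of −1.82 points (−3.18 to −0.223) was past counting error over the whole class, and −2.13 points (−4.28 to 0.0155) against the strongest sites was not. TEAD sites (GGAATGT) were found at 5.59, 6.00 and 4.51% and RUNX sites (TGTGGTT) at 5.83, 5.43 and 4.85% of the Oct6-SK only, shared and Oct4defSox2-SK only sites. The ETS motif CCGGAAG was rare, at 0.630, 1.00 and 1.36%. Windows in which repeats covered most bases made up 8.66% of Oct6-SK only sites, 4.43% of shared sites, 9.23% of all Oct4defSox2-SK only sites and 3.54% of the strongest of these, and the part of repeats in the motif shares was not tested.

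**Figure D3:**
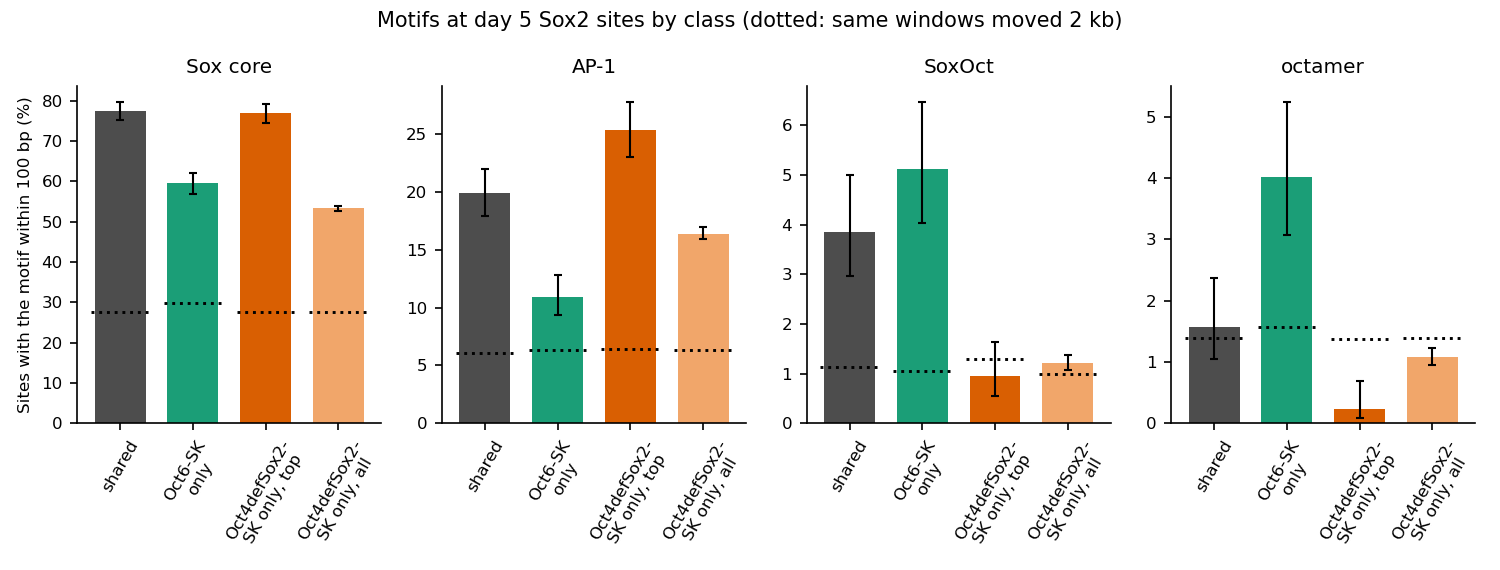
Share of day 5 Sox2 sites with a Sox core, AP-1, SoxOct or octamer match within 100 bp of the summit (y axes, %, each panel with its own scale from 0) in shared sites, Oct6-SK only sites, the 1270 strongest Oct4defSox2-SK only sites (top) and all Oct4defSox2-SK only sites. Bars are shares with 95% Wilson intervals and dotted lines the share in the same windows moved 2 kb. SoxOct and octamer are highest in Oct6-SK only sites (5.12 and 4.02%), AP-1 in the strongest Oct4defSox2-SK only sites (25.4%).

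SoxOct and the octamer were no less frequent among isolated and among stronger Oct6-SK only sites. Among the 839 Oct6-SK only sites with no Oct4defSox2-SK summit within 1 kb, SoxOct was present at 6.56% (background 0.894%), the octamer at 4.41% (1.67%) and AP-1 at 8.82% (6.44%). Among the 275 that scored at least 10, SoxOct was present at 9.09%, the octamer at 6.18% and AP-1 at 14.2%.

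Over the 2669 strongest sites of each library, SoxOct was present at 4.46% in Oct6-SK, 1.76% in Oct4defSox2-SK and 6.18% in Oct4-SK. The octamer was present at 2.74, 0.712 and 2.96%, and AP-1 at 15.6, 24.2 and 16.9%, in the same order. Oct6-SK exceeded Oct4defSox2-SK by 2.70 points for SoxOct (1.78 to 3.65) and 2.02 for the octamer (1.34 to 2.76) and lay 8.58 below it for AP-1 (the difference being −8.58, −10.7 to −6.45). Against Oct4-SK, Oct6-SK lay lower for SoxOct (−1.72, −2.94 to −0.519), while the octamer (−0.225, −1.13 to 0.676) and AP-1 (−1.27, −3.25 to 0.707) differed by less than counting error. At equal numbers the Sox2 sites of Oct6-SK thus lay nearer in these motifs to those of Oct4-SK than to those of Oct4defSox2-SK. Over the whole lists of Oct4defSox2-SK and Oct4-SK, SoxOct was present at 1.35 and 4.83%, the octamer at 1.12 and 2.69% and AP-1 at 16.7 and 14.4%, and the AP-1 share of 15.6% over the whole Oct6-SK list lay between the latter. The lists overlap, which these intervals do not take into account.

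Shared sites differed by their presence in Oct4-SK. SoxOct was present at 2.04% of the shared sites without an Oct4-SK summit and at 5.62% of those with one (−3.58 points, −5.69 to −1.59). The octamer was present at 0.582 and 2.53% (−1.95, −3.42 to −0.653), and AP-1 at 19.2 and 20.5%. The motif also sorted the Oct6-SK sites by whether they were shared. Of the sites with a Sox core, 58.9% had an Oct4defSox2-SK summit, against 37.9% of those without (21.0 points, 17.0 to 24.9). With AP-1 it was 278 of 417 (66.7%) against 49.8% (16.9 points, 11.8 to 21.7). With the octamer it was 22 of 73 (30.1%) against 53.0% (−22.9, −32.4 to −11.4). With SoxOct it was 54 of 119 (45.4%) against 52.7% (−7.37, −16.2 to 1.79), which is within counting error. The same 119 SoxOct sites had an Oct4-SK summit at 49.6% against 35.5% of other sites (14.1 points, 5.06 to 23.1). Sites with a Sox core also had an Oct4-SK summit more often, at 40.8% against 25.7% (15.1 points, 11.3 to 18.7). With AP-1 it was 42.9% against 34.9% (8.07, 3.00 to 13.2). The octamer difference of 7.93 points (−3.02 to 19.5) was within counting error. Of the 667 highest-scoring Oct6-SK sites, 78.0% held a Sox core and 15.7% AP-1, against 69.0 and 15.6% of all. Sharing followed the score too, and the part of the score in these differences was not tested.

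Sox cores gathered at the summit in each class. In the pair of 20 bp bins next to the summit, 14.4 and 15.4% of shared sites held a Sox core, against 3.43% in the bin centred 490 bp before it. For Oct6-SK only sites it was 9.37 and 9.84% against 4.02%, and for the strongest Oct4defSox2-SK only sites 17.2 and 17.6% against 3.39%. AP-1 matches gathered within about 100 bp of shared and of the strongest Oct4defSox2-SK only summits and formed only a low rise around Oct6-SK only summits.

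**Figure D4:**
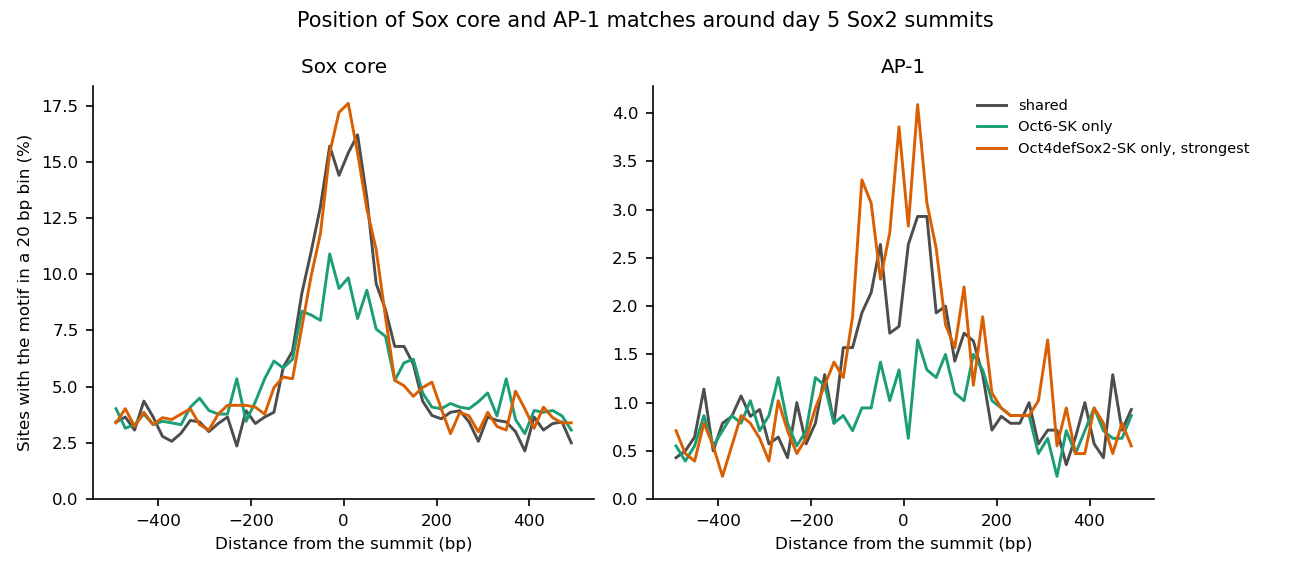
Share of sites (y axes, %) with a Sox core (left) or AP-1 match (right) in each 20 bp bin, by distance of the bin from the summit (x axes, bp), for shared, Oct6-SK only and the strongest Oct4defSox2-SK only sites. The lines have no error bars. Sox cores are most frequent near the summit in all 3 classes, at 9.84% for Oct6-SK only and 17.6% for the strongest Oct4defSox2-SK only sites in the bin just after it.

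Among all words of 6 bases, counted with their reverse complements, the ones furthest above background were Sox cores in each class. At shared sites ACAAAG was present at 52.3% and ACAATG at 43.6% (background 12.2%), followed by the related words GAACAA (36.6%), CAAAGG (37.2%) and AACAAT (34.5%). At Oct6-SK only sites ACAAAG was present at 39.6% (background 19.6%) and ACAATG at 31.4% (12.2%), then AACAAT (25.5%), ACAATA (23.5%) and CAAAGG (28.5%). At Oct4defSox2-SK only sites the first words were ACAAAG (36.1%), ACAATG (26.6%), CAAAGG (25.8%), GAACAA (22.2%) and AACAAT (21.9%). Between the exclusive classes of equal size, the widest gaps belonged to Sox words, ACAAAG at 39.6% of Oct6-SK only and 55.0% of the strongest Oct4defSox2-SK only sites (−15.4, −19.2 to −11.5) and GAACAA next (−14.3, −17.8 to −10.9). Parts of the AP-1 site followed, with GACTCA at 11.3% of Oct6-SK only and 24.6% of the strongest Oct4defSox2-SK only sites (−13.3, −16.2 to −10.4). AT-rich words differed in the other direction, such as AAATTA at 16.7 and 6.69%, but both shares lay below their backgrounds of 18.8 and 16.8%.

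The sites were then looked up in the POU factor lists of the series, which hold Oct4 at days 1, 5 and 7, Oct4defSox2 at days 1 and 5, and 2 exchange mutants, Oct4 S151M and Oct6 M151S. An Oct6 list was not used here. A summit in at least 1 of the 7 lists was found at 65.1% of shared, 45.4% of Oct6-SK only and 54.0% of the strongest Oct4defSox2-SK only sites. Oct4defSox2 itself was at 54.8% of shared sites at day 1 but at 1.50% at day 5, and at 46.2 and 0.866% of the strongest sites of its own cocktail. Oct4 at day 7 was found at 8.11% of Oct6-SK only sites, 5.15% of shared sites (shared minus Oct6-SK only −2.96, −4.90 to −1.08) and 1.42% of the strongest Oct4defSox2-SK only sites (6.69 points below Oct6-SK only, 5.09 to 8.40). Oct4 at days 1 and 5 was at 11.2 and 8.98% of Oct6-SK only sites and 5.59 and 4.02% of those strongest Oct4defSox2-SK only sites. The Oct6 M151S list covered 10.9 and 7.09% (3.86 points, 1.63 to 6.10), and the Oct4 S151M list 25.2 and 16.9%. The Oct6-SK only sites thus had more summits of Oct4 and of both exchange mutants, and fewer of Oct4defSox2 at day 1 (32.2%), than the strongest sites of the other cocktail. Against all Oct4defSox2-SK only sites the last order turned, since Oct4defSox2 at day 1 was found at 16.3% of these and any of the 7 lists at 21.0%. A share here reads the length of its list as well. The Oct4 S151M list held 101151 summits and the Oct4defSox2 list 31060 at day 1, but the Oct4defSox2 list of day 5 is short, at 1034. The Oct6 M151S summits were mostly weak, with a median score of 3.74 and 0.842% of them at 10 or more.

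Few sites of day 5 had been Sox2 sites of the same cocktail at day 1. In Oct6-SK it was 327 of 2669 (12.3%, 11.1 to 13.6) and in Oct4defSox2-SK 1895 of 21551 (8.79%, 8.42 to 9.18), a difference of 3.46 points (2.21 to 4.81). With the 2669 strongest sites of each list of both days the order turned, with 11.3% in Oct6-SK and 21.1% in Oct4defSox2-SK (−9.82, −11.8 to −7.86). By class, day 1 Oct4defSox2-SK had a Sox2 summit at 33.2% of shared sites, 9.92% of Oct6-SK only sites and 28.6% of the strongest Oct4defSox2-SK only sites. Day 1 Oct6-SK had one at 15.4, 8.74 and 7.95%. The shared sites were thus also the ones most often present at day 1 in these lists.

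Position relative to genes differed little at equal numbers. Between coding genes lay 48.7% of shared, 52.7% of Oct6-SK only and 50.9% of the strongest Oct4defSox2-SK only sites, and in introns 47.5, 43.9 and 45.7%. Within 1 kb of a coding gene start lay 5.22, 4.96 and 5.12%. All Oct4defSox2-SK only sites together had 9.45% in such promoters, 4.49 points above Oct6-SK only (−5.63 to −3.09 for Oct6-SK minus Oct4defSox2-SK), a gap of −0.157 points (−1.88 to 1.56) against the strongest sites. Among sites that scored at least 10 in their own list, 2.91% of Oct6-SK only and 8.81% of Oct4defSox2-SK only sites lay in promoters, and the difference with that score minimum in every list was −5.03 points (−6.68 to −2.30). The median distance to a start was 43.6 kb for shared, 48.3 kb for Oct6-SK only and 47.5 kb for the strongest Oct4defSox2-SK only sites.

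Lists of genes by role were compared by whether a summit lay within 50 kb of a start, which is a description and assigns no target. Of 21911 coding genes, 10.5% had an Oct6-SK summit, 58.8% an Oct4defSox2-SK summit, 10.8% one of the 2669 strongest Oct4defSox2-SK summits and 6.05% a shared site. Of 30 naive pluripotency genes, 8 had an Oct6-SK summit, 13 an Oct4defSox2-SK summit, 4 one of the strongest 2669 and 4 a shared site. Of 26 epithelial genes the counts were 3, 21, 4 and 1, and of 30 fibroblast genes 5, 22, 2 and 1, in the same order. Of 16 primitive endoderm genes they were 5, 12, 4 and 3, of 25 TGF-beta pathway genes 6, 20, 6 and 4, and of 20 Sox genes 4, 14, 8 and 3. Of 28 neural progenitor genes they were 5, 20, 5 and 3, of 18 Schwann cell and neural crest genes 3, 12, 2 and 2, of 15 POU genes 3, 10, 4 and 3, and of 12 AP-1 factor genes 2, 8, 2 and 2. At equal numbers the intervals of the 2 cocktails overlapped in each of the 10 lists, and the lists are small. The counts include Sox2, Pou5f1, Pou3f1 and Sox17, which had summits in their exons. In Oct4defSox2-SK they also include Klf4, whose only summit lay in an exon.

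**Figure D5:**
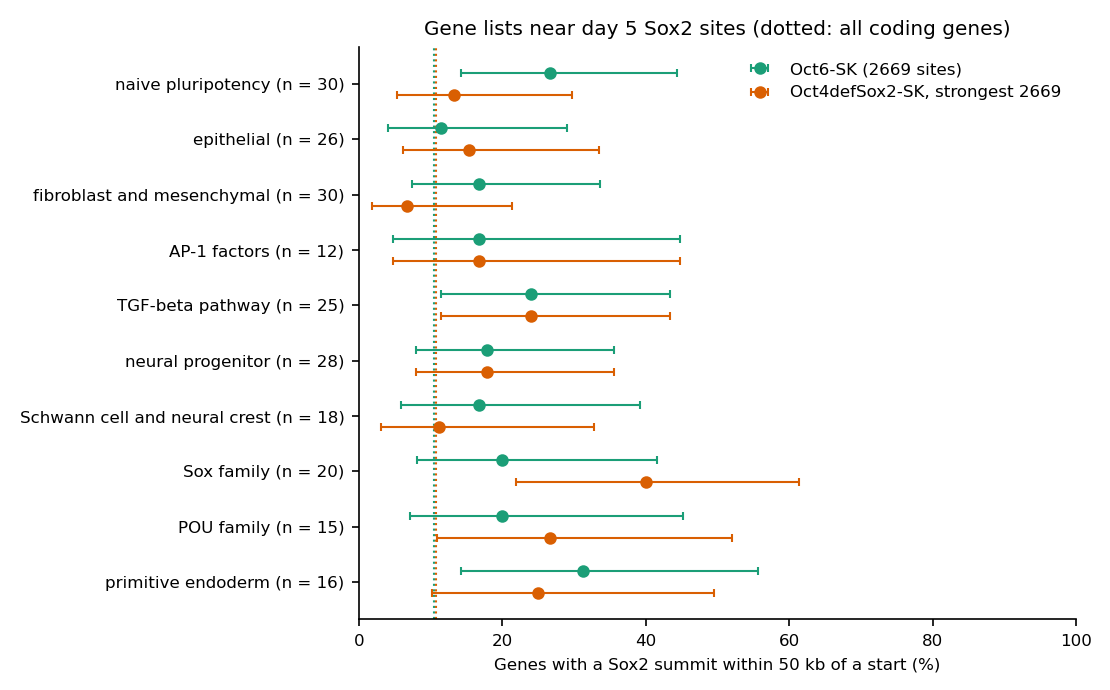
Share of the genes of each list with a day 5 Sox2 summit within 50 kb of a start (x axis, %), in Oct6-SK and for the 2669 strongest sites of Oct4defSox2-SK. Points are shares with 95% Wilson intervals, n is the number of genes and dotted lines are the shares of all coding genes (10.5 and 10.8%). The intervals of the 2 cocktails overlap in each list, with 26.7 and 13.3% for naive pluripotency genes and 4 and 8 of 20 for Sox genes.

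Single genes are described over the whole lists, which reach 58.8% of coding genes in Oct4defSox2-SK and 10.5% in Oct6-SK. Among the naive pluripotency genes, Tfcp2l1, a transcription factor of the ground state, had an Oct6-SK summit 0.0670 kb from its start that scored 5.77. It had no summit in Oct4defSox2-SK or Oct4-SK. Zfp42 (Rex1), a marker of naive cells, had an Oct6-SK summit of 11.7 at 42.2 kb and none in the other cocktails. The growth factor gene Fgf4 had 2 summits in each cocktail, with summed scores of 21.0 in Oct6-SK, 22.8 in Oct4defSox2-SK and 24.4 in Oct4-SK, and both Oct6-SK summits were shared. Fgf4 thus scored close together in the 3 lists, whereas 89.7% of shared sites scored higher in Oct4defSox2-SK. The DNA demethylase genes Tet1 and Tet2 had shared sites that scored 5.77 and 10.8 in Oct6-SK, and their highest Oct4defSox2-SK summits scored 44.9 and 17.4. Jarid2, of the Polycomb complex, had an Oct6-SK summit of 11.7 that was not shared.

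Of the epithelial genes, the desmosome gene Dsp had a shared site of 9.88 in Oct6-SK, 59.0 in Oct4defSox2-SK and 48.1 in Oct4-SK. The adhesion gene Epcam (8.15) and the protease inhibitor gene Spint2 (5.03) had Oct6-SK summits that were not shared. The keratin genes Krt8 and Krt18 shared a summit that scored 44.9 in Oct4defSox2-SK, with none in Oct6-SK. The junction genes Pkp3 and Tjp3, with summed scores of 39.2 and 39.1, also lacked an Oct6-SK summit. Their highest Oct4defSox2-SK summits scored 14.0 and 27.8, and the 2669th site of that list scored 20.3. At equal numbers Pkp3 therefore had no summit in either cocktail. Of the fibroblast genes, Vim, an intermediate filament, had a shared site of 9.00, and Fn1 (8.38), Col1a1 (5.77), Cdh2 (5.03) and the transcription factor gene Tcf21 (4.33) had Oct6-SK summits. Fbn1, Thy1 and Twist2 had summed Oct4defSox2-SK scores of 50.3, 41.5 and 35.9 and no Oct6-SK summit. Their highest Oct4defSox2-SK summits scored 19.2, 25.8 and 25.8, that of Fbn1 being below 20.3.

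Among AP-1 genes, Fosb scored 12.1 in Oct6-SK and 30.9 in Oct4defSox2-SK at a shared site, and the small Maf gene Maff 11.2 in Oct6-SK at a shared site. Fosl2, Jund and Junb, at 46.5, 21.8 and 21.7 summed in Oct4defSox2-SK, had none in Oct6-SK. Their highest Oct4defSox2-SK summits scored 25.8, 10.1 and 9.10, those of Jund and Junb being below the 20.3 of the 2669th site. In the TGF-beta pathway, the receptor genes Tgfbr1, Tgfbr2 and Acvr1 had shared sites of 11.2, 16.6 and 7.33 in Oct6-SK, and Tgfbr1 had no summit in Oct4-SK. The BMP receptor gene Bmpr1a (9.88) and the target gene Id2 (6.53) had Oct6-SK summits that were not shared, while the target gene Id1 had a shared site of 14.6 that reached 44.9 in Oct4defSox2-SK. Ltbp1, which holds latent TGF-beta in the matrix, had a summed score of 59.4 in Oct4defSox2-SK alone of the 2. Its highest summit there scored 20.1, also below 20.3.

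Among the neural and Schwann cell genes, Sox21 led with a summed score of 138 in Oct6-SK and 201 in Oct4defSox2-SK, of which the highest summit, at 170, belongs to the shared site printed above. The proneural gene Neurog2 had a shared site of 6.09 and Dll1, a Notch ligand, an Oct6-SK summit of 7.33. Lhx2, a homeobox gene of the forebrain, had one of 5.77. Egr2 (Krox20), which drives myelination in Schwann cells, had an Oct6-SK summit of 15.6 that was not shared, and the myelin gene Mbp one of 13.1 that was. The endothelin receptor gene Ednrb had a shared site of 4.33. Gli3 and Prom1, at 49.2 and 36.3 summed, and the neural crest genes Erbb3, Foxd3, Pax3 and Pmp22, at 28.6, 25.4, 24.5 and 22.2, had summits in Oct4defSox2-SK and none in Oct6-SK. Of these genes, only Prom1 (30.7) and Foxd3 (25.4) had a summit above 20.3, the score of the 2669th Oct4defSox2-SK site. Of the other Sox and endoderm genes, Sox13 had 3 Oct6-SK summits, all shared, summing to 69.4 against 295 in Oct4defSox2-SK. Sox6 had 9 Oct4defSox2-SK summits and none in Oct6-SK. The basement membrane genes Col4a1 and Col4a2 had a common shared site of 9.00, and Foxa2 (6.04) and Lamc1 (8.15) had Oct6-SK summits that were not shared. Lamb1 and Cubn, at 44.6 and 27.6, had Oct4defSox2-SK summits alone of the 2 lists, the highest scoring 28.8 and 16.0. Of the POU genes, Pou1f1 had a shared site of 6.52. Pou2f1 and Pou6f1, at 46.0 and 27.8, had summits in Oct4defSox2-SK and none in Oct6-SK, the highest scoring 15.7 and 27.8.

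Summits lay in exons of Sox2, Pou5f1 and Pou3f1 in all 3 day 5 libraries. Where the cocktail's viruses carry that gene, reads of the vector and of the chromosomal gene cannot be told apart in a summit list. This applies to Sox2 and Klf4 in each library, to Pou5f1 in Oct4defSox2-SK and Oct4-SK and to Pou3f1 in Oct6-SK, while the Oct6-SK cocktail holds no Pou5f1 virus and the others no Pou3f1 virus. In exons of Pou5f1 the highest summit scored 33.0 in Oct6-SK, 281 in Oct4defSox2-SK and 102 in Oct4-SK. In exons of Sox2 the highest scored 32.6, 178 and 51.7, and in exons of Pou3f1 22.6, 48.0 and 17.5. The exon of Klf4 had a summit in Oct4defSox2-SK alone, at 9.53. The summits of Sox2 and of Pou5f1 stood among the 31 strongest of Oct6-SK and the 5 strongest of Oct4defSox2-SK. A coding exon of Sox17, which is in neither cocktail, also held high summits, and whether their reads come from the chromosome was not tested. It held the strongest Oct4defSox2-SK summit, at 281, and an Oct6-SK summit of 36.0 at a distance of 163 bp. Neither Sox17 window nor the exclusive Sox2 windows held a Sox core, SoxOct, octamer or AP-1 match.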

How the data were processed

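Sox2 chromatin immunoprecipitation was sequenced from reprogramming cells at day 5, with 1 library per group. The study's methods name more than 1 Sox2 antibody and do not assign them to libraries. Per the labels and the study's methods, the authors aligned reads to mm10 with Bowtie2 (version 2.2.5 in the submitters' processing notes), kept unique reads of sufficient mapping quality and called summits with MACS2 at a p-value threshold. The deposited score of a summit is its −log10 p. Summits that MACS2 split from a broad peak count as separate sites, which lengthens a list where peaks are wide. Peak tables, given for the Oct4 S151M and Oct6 M151S libraries, list the same summits as their summit lists, and their other columns were not used. Input libraries (3 samples) were not analysed here. Read depth is not given in the lists and was not used here.

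Summits were matched within 100 bp, motifs were searched within 100 bp to each side on GRCm38, and genes were taken from the GENCODE annotation of that build. Shares were computed with Python 3.11.15, numpy 2.4.6, pandas 2.3.3, scipy 1.17.1 and pysam 0.24.0, with code tested on simulated data. Equal numbers means the highest-scoring sites of each list, ties broken by position. Sites named were the 4 highest of each class, at most 1 per 10 kb (shared classes by the worse of the 2 ranks), and words of 6 bases the 5 furthest above background. Genes named had an Oct6-SK summit within 50 kb or stood among the 5 highest summed Oct4defSox2-SK scores of their list. Members, gene lists and motifs were chosen with earlier results of these data known. Alternatives were the matching distance, the score minimum, list length, motif stringency and window, and antibody-shared sites.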

Additional observations from a re-analysis of the deposited data

How the results depend on the processing

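Of 130 alternative values, 94 were labelled the same as reported. A share was the same when it lay within the reported interval. A difference was the same when its interval excluded 0, or included it, as the reported one did. Its sign had to match only where at least 1 of these intervals excluded 0, and its size did not count. The MORE difference, −0.0202 as reported and 0.223 at 250 bp, changed sign and was labelled the same. The AP-1, SoxOct and octamer differences between Oct6-SK only and Oct4defSox2-SK only sites and the fall of sharing with score were past counting error in the same direction under all alternatives run for them (11, 13, 12 and 8). Their sizes moved: the SoxOct difference was 0.609 with 1 mismatch, an interval of 8.85 to 13.4 with 3, 1.71 in windows of 50 bp and 7.54 with scores of at least 10, and the octamer difference 13.3 with 1 mismatch, 1.43 in windows of 50 bp and 4.48 with scores of at least 10, and the AP-1 difference ran from −3.33 to −16.7. The share of Oct6-SK sites in Oct4defSox2-SK was 34.5% at 50 bp, 65.5% at 250 bp, 66.9% with scores of at least 10, 30.8% at equal numbers, 34.3% at 1000 sites and 50.3% without sites that had a summit of both the Oct4 and the Oct6 antibody in any library. The reverse share was 4.28, 8.17, 30.8, 34.4 and 5.77% (at 50 bp, 250 bp, equal numbers, 1000 sites and without sites of both antibodies). At 1000 sites the preference of Oct6-SK sites for Oct4defSox2-SK over Oct4-SK was 2.30 points, and for Oct4defSox2-SK sites the preference for Oct6-SK over Oct4-SK was −1.16 at equal numbers and 2.30 at 1000. The Sox core difference was −0.349 with scores of at least 10, −13.1 at equal numbers, −9.26 at 1000 sites, −17.4 against the strongest exclusive sites and −22.2 with isolated sites at equal numbers. The KLF difference was −1.30 at 50 bp, −1.81 with scores of at least 10, −1.59 without sites of both antibodies, −0.737 in windows of 50 bp, −2.13 against the strongest, −1.84 and −1.55 with isolated sites (all, and at equal numbers) and 0.595 at 1000 sites. The promoter difference was 0.0511 at equal numbers, −0.00580 at 1000, −0.157 against the strongest and −0.119 with isolated sites at equal numbers, but −5.03 with scores of at least 10. The day 1 difference was 0.163 with scores of at least 10, −9.82 at equal numbers and −7.10 at 1000. The MORE difference was 0.143 with no mismatch and 4.13 with 2. The causes were not tested. The comparisons with the strongest and the isolated exclusive sites were chosen after seeing the data. A looser Sox core and a stricter octamer were not run. Read depth was not used here. No paired analysis was possible because each group has 1 library.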
